A study of Mus musculus with 27 samples.

Results

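Keratins 6A, 6B, 16, 17 and 75 are intermediate filament proteins of hair follicle and injured epidermis, and their 5 genes, Krt6a, Krt6b, Krt75, Krt16 and Krt17, were followed through every expression file of the study. They were taken by gene symbol and are 5 of 51906 genes in the RNA-seq count table and 5 of 32285 genes in each single cell matrix. The study asked how hair follicle stem cells (HFSCs) settle their identity after leaving their niche, and whether retinoids acting through the retinoid X receptor Rxra are needed for this. RNA-seq was made in 8 libraries of cultured HFSCs from telogen (postnatal day 55) mouse back skin, with 2 mice for each of 4 groups: wild-type cells in FBS, wild-type cells in atRA+PKCi, Rxra cKO cells in FBS and Rxra cKO cells in atRA+PKCi. FBS is a serum medium. In atRA+PKCi the serum is replaced by B-27 supplement and all-trans retinoic acid and the protein kinase C inhibitor Go6976 are added, so serum and the compounds cannot be told apart in this contrast. The Rxra cKO mice are Sox9-CreER;Rxra-fl/fl;R26-YFP, in which an inducible Cre made in Sox9-expressing cells deletes floxed Rxra and switches on YFP, and the strain of the wild-type mice is not given in the sources used here. All lines were first grown on growth-arrested feeder cells, and each mouse gave a library in both media. Single cell RNA-seq was made from anagen VI (postnatal day 32) back skin of 2 wild-type mice, and from wild-type CD34+ HFSCs of 2 mice grown in 7 culture conditions marked by hashtag antibodies. The paper states that these HFSCs were taken from the anagen VI mice at the same time and first grown for 2 passages.

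Intermediate filaments are built from pairs of a type I and a type II keratin. Krt6a, Krt6b and Krt75 encode type II proteins, and Krt16 and Krt17 encode type I proteins that pair with them. Krt6a, Krt6b, Krt16 and Krt17 are induced in keratinocytes at wound edges and in hyperproliferative epidermis, while in resting skin Krt17 belongs to the hair follicle and Krt75 to the companion layer and the medulla of the hair shaft.

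The type II genes lie on mouse chromosome 15 and the type I genes on chromosome 11, all on the minus strand of build GRCm38. Krt75 spans chr15:101563345-101573904. Krt6b spans chr15:101676023-101680287 and Krt6a chr15:101689910-101694307, with 9 exons each. Krt16 at chr11:100246091-100248902 and Krt17 at chr11:100256217-100261029 are neighbours with 8 exons each. The coding sequences of Krt6a and Krt6b were identical at 1622 of 1659 aligned bases (97.77%), with identical runs of up to 280 bases. Over the whole transcripts 2071 of 2224 aligned bases were identical, so reads can also tell the genes apart outside the coding sequence. The 60 coding bases below run from base 817 to base 876 of both coding sequences in the GENCODE annotation. They are shown because no other coding stretch of this length differed more, and their 10 differing bases are in capitals.
Krt6a: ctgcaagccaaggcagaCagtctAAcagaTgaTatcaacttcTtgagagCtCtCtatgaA
Krt6b: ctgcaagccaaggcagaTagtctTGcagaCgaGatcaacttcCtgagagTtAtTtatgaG
Of the 31-base words of the Krt6a transcript, 49.3% also occurred in Krt6b, and 50.3% of those of Krt6b occurred in Krt6a, so the division of reads between these genes rests on the other words. Krt75 shared no such word with another of the 5 genes. Krt16 shared 19.7% of its words with Krt14, the abundant basal type I keratin, and 2.22% with Krt17. Krt17 shared 11.8% of its words with Krt14. Krt6a shared 9.12%, Krt6b 5.03% and Krt75 0.649% of their words with the basal keratin Krt5.

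The 300 bases around the start of Krt75 (chr15:101573855-101574154, minus strand, RefSeq, GRCm38.p6) are shown because Krt75 had the lowest level per length of the 5 genes in culture. The capitals mark the letters GGGTG, the reverse complement of CACCC, and CCGCCC, the reverse complement of the GC box GGGCGG.
Krt75: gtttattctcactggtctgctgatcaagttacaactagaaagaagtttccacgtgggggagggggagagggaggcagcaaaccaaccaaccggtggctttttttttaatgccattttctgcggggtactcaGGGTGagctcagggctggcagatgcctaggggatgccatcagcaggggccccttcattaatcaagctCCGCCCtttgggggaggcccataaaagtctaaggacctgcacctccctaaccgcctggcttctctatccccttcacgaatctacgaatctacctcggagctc
The CACCC letters lay 119 to 115 bases before the start and occurred on either strand in 57.52% of 32851 promoters of the same length. The GC box letters lay 52 to 47 bases before the start and occurred in 35.66%. The TATA box (letters TATAAA) was in 13.62% of promoters, the CCAAT box (letters CCAAT) in 37.41%, the AP-1 motif (letters TGANTCA) in 7.81% and a retinoid half-site (letters AGGTCA) in 16.26%, and none of these was in the Krt75 window on either strand. A match of letters is a description and not a binding site.

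The 8 RNA-seq libraries held 25150265 to 35879777 estimated counts. Levels are given as CPM, the count relative to the library total after scaling by TMM factors, and a gene was called where its Benjamini-Hochberg adjusted p over 15965 genes, in edgeR's quasi-likelihood test, was under 0.05. Rxra itself was at 149 and 122 CPM in wild-type FBS and 97.2 and 95.7 CPM in Rxra cKO FBS, and in atRA+PKCi at 147 and 143 CPM in wild-type and 148 and 145 CPM in Rxra cKO cells. It was lower in Rxra cKO cells in FBS (log2 fold change -0.49, adjusted p = 0.00264) and showed no difference in atRA+PKCi (0.01, adjusted p = 0.927). The count covers the whole gene and does not show whether the floxed part was lost, so Rxra cKO below means the libraries so labelled. The basal keratins Krt5 and Krt14 together held 14980 to 34301 CPM in all 8 libraries. Markers of other cell types were near the floor: the 6 fibroblast genes summed to 1.32 to 11.6 CPM with Lum at 0 in every library, the 3 immune genes to 0 to 1.86 CPM, the 3 melanocyte genes to 0.348 to 0.770 CPM and the 2 endothelial genes to 1.26 to 2.96 CPM. In bulk libraries fewer cells of a type and less RNA per cell cannot be told apart.

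In wild-type cells all 5 keratins were lower in atRA+PKCi than in FBS. This was 5 of 5 lower against a background of 26.6% of all genes called lower and 27.2% called higher, with a median log2 fold change of -4.75 over the 5 genes and 0.03 over all genes tested. Krt6b fell furthest. Krt6b, a type II keratin induced by injury, was at 6358 and 6254 CPM in wild-type FBS, against 20.4 and 21.3 CPM in wild-type atRA+PKCi. The libraries of each medium nearly coincided and the media were separated by 302-fold (log2 fold change -8.24 ± 0.16 (SE), n = 2 and 2, adjusted p = 1.06e-08). Krt6a, its near-identical partner, was at 13489 and 13391 CPM in FBS and at 1966 and 1930 CPM in atRA+PKCi. It fell by 2.79 on the log2 scale (SE 0.09, adjusted p = 4.01e-08), less steeply than Krt6b. In the FBS libraries Krt6a had the 3rd highest count of all genes, and in the atRA+PKCi libraries it ranked 36 and 39.

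Krt16, the type I partner of the keratin 6 proteins, was at 6775 and 6738 CPM in wild-type FBS, against 120 and 139 CPM in wild-type atRA+PKCi. It was 52.2-fold lower in atRA+PKCi (log2 fold change -5.71 ± 0.14 (SE), adjusted p = 1.50e-08). Krt14, with which it shares sequence, fell by 1.87 on the log2 scale (adjusted p = 8.65e-07). Krt17, the type I keratin of the follicle, was low in wild-type cells of both media, at 78.1 and 95.2 CPM in FBS and 48.3 and 57.2 CPM in atRA+PKCi. Its groups did not overlap, but the change of 1.64-fold was the smallest of the 5 (log2 fold change -0.71 ± 0.12 (SE), adjusted p = 0.00127). Krt75 was close to absent from culture, with 109 and 103 estimated counts (3.98 and 3.98 CPM) in wild-type FBS, against 7 and 2 counts (0.225 and 0.0634 CPM) in wild-type atRA+PKCi. Its log2 fold change of -4.75 had a 95% interval of -5.99 to -3.51 (adjusted p = 0.000105) and rests on these few counts.

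**Figure D1:**
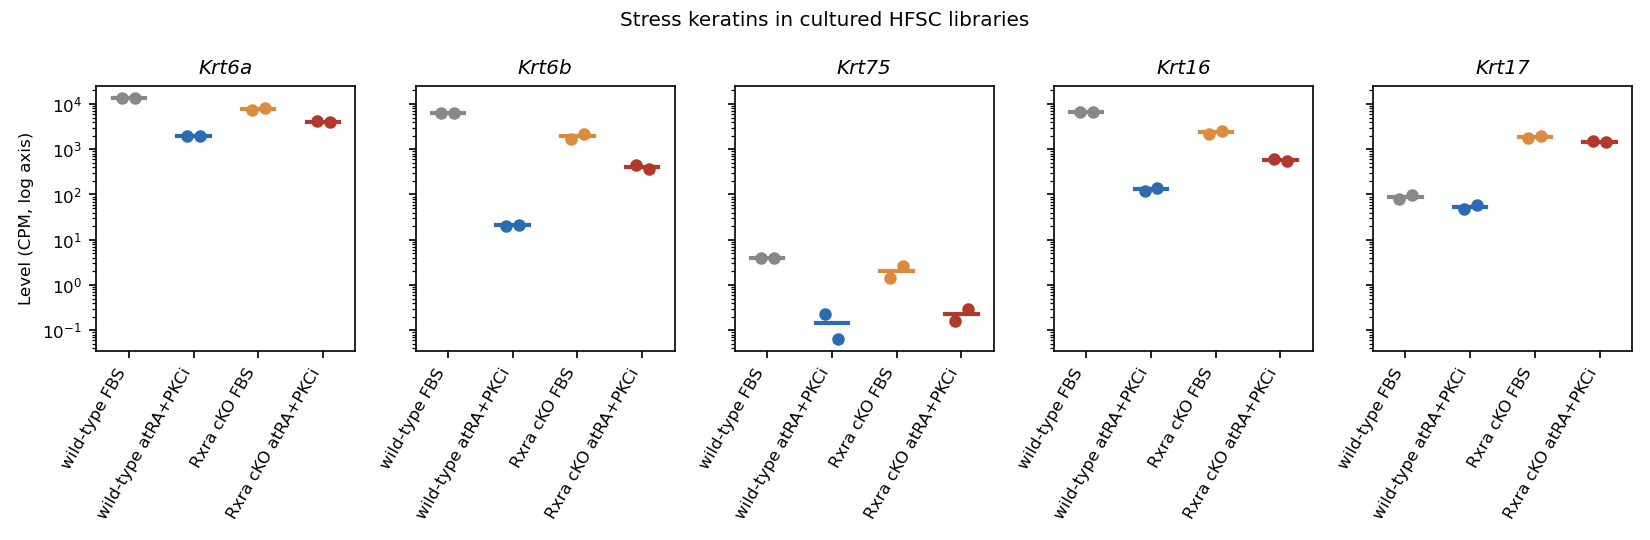
Level of each keratin in the 8 RNA-seq libraries, in CPM on a log axis. Points are libraries (2 mice a group) and bars are group means. Krt6b spans 6358 to 20.4 CPM in wild-type cells, while Krt17 separates the libraries by genotype, from 48.3 to 95.2 CPM in wild-type and 1460 to 1983 CPM in Rxra cKO cells.

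In Rxra cKO cells 4 of the 5 keratins were lower in atRA+PKCi than in FBS, beside 22.2% of all genes called lower and 20.8% called higher in this contrast. The median log2 fold change was -2.04 over the 5 genes and 0.02 over all genes. Krt6b was at 1698 and 2121 CPM in Rxra cKO FBS and 440 and 375 CPM in Rxra cKO atRA+PKCi. That is a fall of 4.69-fold (log2 fold change -2.23 ± 0.12 (SE), adjusted p = 2.71e-06). Krt16 was at 2193 and 2587 CPM in FBS and at 621 and 538 CPM in atRA+PKCi, a fall of 4.12-fold (adjusted p = 3.74e-06). Krt6a was at 7504 and 8171 CPM in FBS and at 4123 and 3914 CPM in atRA+PKCi, a fall of 1.95-fold (adjusted p = 3.14e-05). None of these 3 genes had overlapping groups, a separation that was not counted over all genes.

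Krt75 had 39 and 83 estimated counts in Rxra cKO FBS and 6 and 8 in Rxra cKO atRA+PKCi. Its log2 fold change was -3.201, with a 95% interval of -4.38 to -2.02 (adjusted p = 0.00125). Krt17 was high in both media, at 1731 and 1983 CPM in FBS and 1500 and 1460 CPM in atRA+PKCi. Its log2 fold change of -0.33 ± 0.12 (SE) missed the threshold (adjusted p = 0.0535). It passed in the fit with the mouse as a replicate block (log2 fold change -0.32, adjusted p = 0.0191), in DESeq2 (adjusted p = 0.00879), in a fit of these 4 libraries alone (adjusted p = 0.0136), with low counts kept (adjusted p = 0.00296), and when wild-type FBS replicate 1 (adjusted p = 0.0240), wild-type FBS replicate 2 (adjusted p = 0.0234) or wild-type atRA+PKCi replicate 2 (adjusted p = 0.0481) was left out.

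Between genotypes Krt17 moved apart from the other keratins. In FBS, 3 of 5 were lower and 1 higher in Rxra cKO than in wild-type cells, against 20.5% of all genes called lower and 22.3% called higher, and the median log2 fold change was -0.95 over the 5 genes and 0.02 over all genes. Krt17 was 21.4-fold higher in Rxra cKO cells (log2 fold change 4.42 ± 0.14 (SE), adjusted p = 2.17e-07). Krt6b was 3.30-fold lower (adjusted p = 1.32e-05), Krt16 2.83-fold lower (adjusted p = 2.38e-05) and Krt6a 1.71-fold lower (adjusted p = 0.000120). Krt75 had a log2 fold change of -0.95 ± 0.41 (SE) that missed the threshold (adjusted p = 0.0922). It passed with low counts kept (adjusted p = 0.0119) and in a fit of the 4 FBS libraries alone (adjusted p = 0.0477).

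In atRA+PKCi, 4 of 5 keratins were higher in the libraries labelled Rxra cKO, whose whole-gene Rxra level was that of wild-type, than in wild-type cells, against 23.0% of all genes called higher and 20.2% called lower, with a median log2 fold change of 2.16 over the 5 genes and 0.00 over all genes. Krt17 was 28.0-fold higher (log2 fold change 4.81 ± 0.14 (SE), adjusted p = 1.15e-07) and Krt6b 19.5-fold higher (4.29 ± 0.14 (SE), adjusted p = 1.55e-07). Krt16 was 4.48-fold higher (adjusted p = 2.73e-06) and Krt6a 2.06-fold higher (adjusted p = 1.93e-05). Krt75 had a log2 fold change of 0.60 with a 95% interval of -0.97 to 2.16 (adjusted p = 0.517), which the 7, 2, 6 and 8 counts of these libraries cannot narrow. The levels of Krt6a, Krt6b and Krt16 in Rxra cKO atRA+PKCi lay between those of the wild-type media, while Krt17 lay above every wild-type library.

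The difference between genotypes in the effect of the medium was tested as an interaction. It was called higher for 3 of 5 keratins, meaning a smaller fall in Rxra cKO than in wild-type cells, against 13.3% of all genes called higher and 11.3% called lower. Krt6b fell less in Rxra cKO cells by 6.01 ± 0.18 (SE) on the log2 scale (adjusted p = 1.74e-06), Krt16 by 3.66 ± 0.17 (adjusted p = 4.16e-06) and Krt6a by 1.82 ± 0.12 (adjusted p = 1.95e-05). The median was 1.82 over the 5 genes and -0.01 over all genes. The interaction of Krt75 was 1.55 with a 95% interval of -0.28 to 3.38 (adjusted p = 0.201). That of Krt17 was 0.39 with a 95% interval of -0.00 to 0.78 (adjusted p = 0.140). The Krt17 term passed with low counts kept (adjusted p = 0.0245), in DESeq2 (adjusted p = 0.0326) and when wild-type FBS replicate 1 was left out (0.52, adjusted p = 0.0453). The contrasts share libraries, so their values are not independent of each other.

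**Figure D2:**
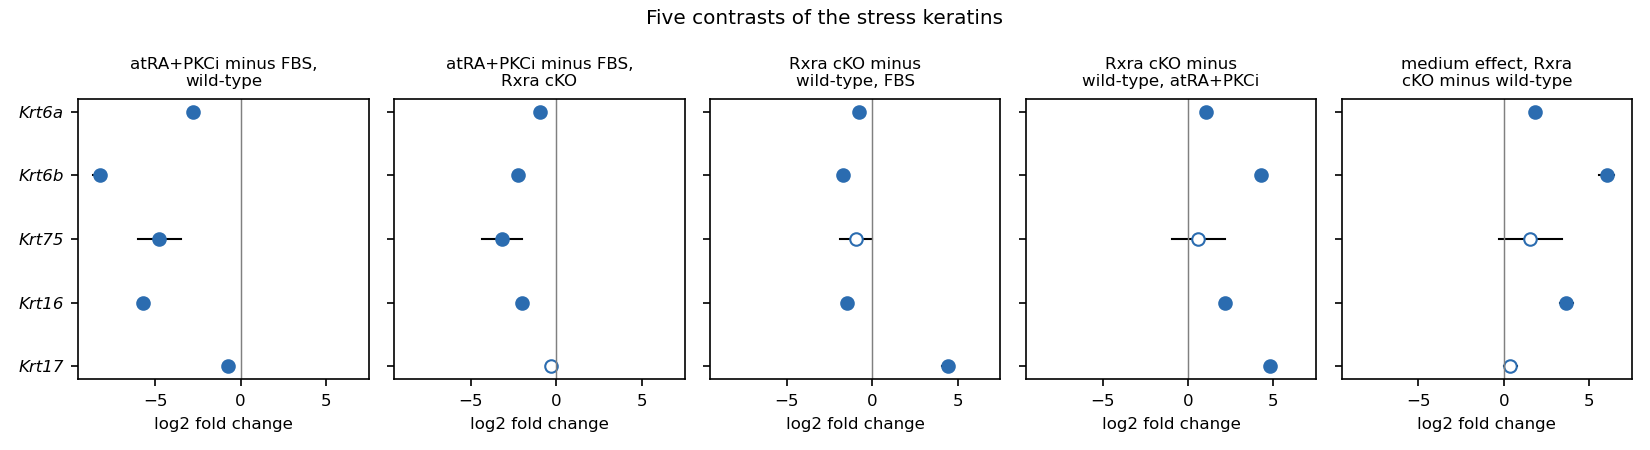
Log2 fold changes of the 5 keratins in 5 contrasts of the RNA-seq libraries, with 95% intervals as lines. Filled points passed an adjusted p of 0.05 in edgeR. Krt17 stands at -0.71 and -0.33 in the medium contrasts and at 4.42 and 4.81 in the genotype contrasts.

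The keratin 6 pair and the type I pair were compared per length, as CPM per kb of exon sequence. Krt6b made up 33.8% and 33.6% of the Krt6a and Krt6b level in wild-type FBS, against 1.11% and 1.18% in wild-type atRA+PKCi. Among the libraries labelled Rxra cKO it made up 19.7% and 21.9% in FBS and 10.3% and 9.39% in atRA+PKCi. The 4 groups did not overlap. With the reads of Krt6a and Krt6b summed, which removes the division between them, the log2 fold change in wild-type cells was -3.33 (adjusted p = 2.66e-08) and in Rxra cKO cells -1.14 (adjusted p = 1.76e-05).

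Krt17 made up 1.15% and 1.41% of the Krt16 and Krt17 level per kb in wild-type FBS, against 29.0% and 29.3% in wild-type atRA+PKCi. The share in Rxra cKO cells was 44.3% and 43.6% in FBS and 70.9% and 73.3% in atRA+PKCi. Krt16 was thus the main type I member in wild-type cells of both media and Krt17 in Rxra cKO atRA+PKCi. The 5 genes together held 2.43% and 2.34% of all counts in wild-type FBS, against 0.233% and 0.223% in wild-type atRA+PKCi. Their share in Rxra cKO cells was 1.32% and 1.43% in FBS and 0.711% and 0.671% in atRA+PKCi.

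**Figure D3:**
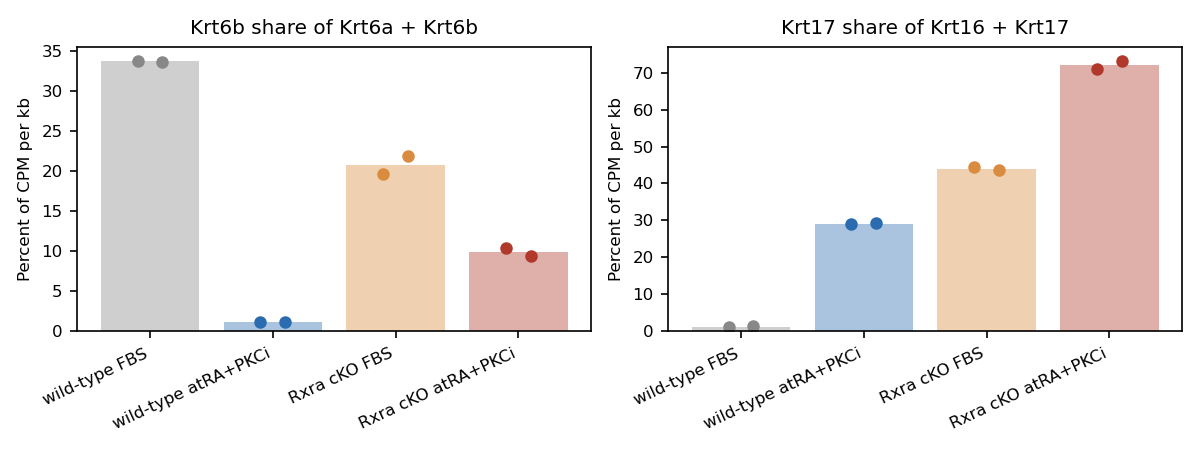
Share of Krt6b in the summed Krt6a and Krt6b level (left) and of Krt17 in the summed Krt16 and Krt17 level (right), in percent of CPM per kb. Bars are means and points the 2 libraries of each group. Krt6b is highest in wild-type FBS (33.8% and 33.6%) and Krt17 in Rxra cKO atRA+PKCi (70.9% and 73.3%).

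Across the 8 libraries the log2 CPM of Krt6a, Krt6b, Krt16 and Krt75 ran together, with Pearson's r of 0.999 for Krt6a with Krt16, 0.987 for Krt6a with Krt6b and 0.898 for Krt6b with Krt75. Krt17 had r of 0.07 with Krt75 to 0.32 with Krt6b. These points fall into 4 groups of paired mice, so r describes the order of the groups. Among 9013 genes with a mean of at least 10 CPM, the 2 most like Krt6a were Fam46b (r = 0.999) and Glrx (0.998), those most like Krt6b were Gnai1 (0.998) and Aldh3b2 (0.998), and those most like Krt16 were Fam46b (0.998) and Sprr2e (0.998). Krt75 was most like Map2k2 (0.994) and Sec13 (0.993), and Krt17 most like Samd9l (0.999) and Armcx3 (0.998).

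Other keratins did not move one way with medium in wild-type cells. Of 49 further keratin genes 26 were tested, and in wild-type cells 12 were higher and 11 lower in atRA+PKCi, with a median log2 fold change of 0.53. Over all genes 27.2% were called higher and 26.6% lower in that contrast. Krt15, a keratin of bulge stem cells, rose in wild-type cells from 3.65 and 4.75 CPM with FBS to 4576 and 4430 CPM with atRA+PKCi (log2 fold change 10.07, adjusted p = 6.16e-09). In Rxra cKO cells it rose from 6.51 and 8.23 to 251 and 245 CPM (5.07, adjusted p = 8.72e-08). Krt78, a type II keratin, fell in wild-type cells, with a log2 fold change of -7.51 (adjusted p = 5.81e-08) as did Krt23, a type I keratin, at -7.28 (adjusted p = 3.91e-07). With medium in Rxra cKO cells 12 of the 26 were higher and 7 lower, beside 20.8% and 22.2% of all genes. Genotype in FBS gave 9 higher and 6 lower, beside 22.3% and 20.5%. Genotype in atRA+PKCi gave 15 higher and 4 lower (median log2 fold change 1.04), beside 23.0% and 20.2%, so more were higher than lower there. The interaction gave 10 higher and 7 lower, beside 13.3% and 11.3%.

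Wound-activated keratinocyte genes moved mostly with Krt6a, Krt6b and Krt16. Of 36 tested, 33 were lower and 2 higher in wild-type atRA+PKCi than in FBS, with a median log2 fold change of -2.54. Over all genes 26.6% were called lower and 27.2% higher. The genes that rose were Tnc, a matrix glycoprotein (0.68, adjusted p = 0.000245), and Lcn2, an iron-sequestering alarmin (2.13, adjusted p = 0.00695), both named after their values were seen. Mmp13, a collagenase, was at 2210 and 2387 CPM in wild-type FBS, against 0.641 and 0.412 CPM in wild-type atRA+PKCi (log2 fold change -12.08, adjusted p = 6.16e-09). Mmp10, a stromelysin, fell by 9.69 on the log2 scale (adjusted p = 1.23e-08) and Sprr2d, a cornified envelope precursor, fell by 8.22 (adjusted p = 1.81e-08). In Rxra cKO cells 32 of the 36 were lower and 2 higher (median -2.06), beside 22.2% and 20.8% of all genes. All 11 growth factor and cytokine genes tested were lower in atRA+PKCi in both genotypes, against the same shares of all genes.

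Between genotypes the wound list was 10 higher and 17 lower in Rxra cKO than in wild-type cells in FBS (median log2 fold change -0.30), where 22.3% of all genes were called higher and 20.5% lower. In atRA+PKCi 22 were higher and 5 lower (median 0.59), beside 23.0% and 20.2% of all genes. The interaction was called higher for 21 and lower for 2 of the 36 (median 0.79), beside 13.3% and 11.3%. Sprr2d resembled Krt6b in this term, at 6.07 (adjusted p = 2.70e-06), with 96.2 and 89.0 CPM in Rxra cKO atRA+PKCi against 2.34 and 2.63 CPM in wild-type atRA+PKCi. Of the alarmin and envelope genes, 8 of 10 were higher and none lower in Rxra cKO atRA+PKCi than in wild-type atRA+PKCi.

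Of 20 regulators tied to these keratins, 6 were higher and 7 lower with medium in wild-type cells, near the 27.2% and 26.6% of all genes called higher and lower. The counts for Rxra cKO cells were 9 higher and 3 lower, beside 20.8% and 22.2%. Fosl1, an AP-1 subunit, fell in both genotypes, by log2 fold changes of -2.40 (wild-type, adjusted p = 1.10e-07) and -2.25 (Rxra cKO, adjusted p = 6.00e-07). Fosb, another AP-1 subunit, rose in atRA+PKCi by 2.97 in wild-type cells (adjusted p = 1.12e-06) and by 1.97 in Rxra cKO cells (adjusted p = 3.04e-05). Klf4, a factor of epidermal barrier differentiation, fell too, at -1.56 in wild-type cells (adjusted p = 1.19e-06) and -0.88 in Rxra cKO cells (adjusted p = 7.45e-05). With genotype 3 of the 20 were higher and 16 lower in FBS (22.3% and 20.5% of all genes), and 3 higher and 10 lower in atRA+PKCi (23.0% and 20.2%). In the interaction 7 were higher and 2 lower (13.3% and 11.3%).

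In intact anagen skin the picture differed by gene. The matrices of the 2 mice held 16521 and 16068 barcodes, of which 62 occurred in both, and 27137 cells remained after filters on genes, UMIs, mitochondrial share and called doublets. Clusters were made without the 5 keratins and named only from fixed markers, so 15 of 28 clusters took a name and the others are called by their 2 leading genes outside the 5. The fixed markers of the companion layer include the 5 keratins, so the naming, unlike the clustering, used their levels. No cluster reached the name companion layer. The study removed cells carrying immune, endothelial, fibroblast or Kit surface markers by sorting, yet 6431 cells were in clusters that took the name fibroblast-like. Fibroblast was also the best class of the unnamed clusters led by St6galnac3 and Gramd1b (2025 cells) and by Pgr and Gm8739 (3308 cells). The libraries stood apart in 2 clusters, since mouse 1 gave 3167 of the 3308 cells of an unnamed cluster led by Pgr and Gm8739 and mouse 2 gave 2355 of the 2473 cells of a fibroblast-like cluster led by Isg15 and Bst2. Values are UMIs summed per mouse and class, as CPM, and are a description with no test.

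Krt6a was concentrated in 437 cells of a cluster led by Pthlh and Krt14, where its level was 402 CPM in mouse 1 and 375 CPM in mouse 2. A stricter filter required at least 1000 genes and under 5% mitochondrial UMIs of a cell. Under it the highest class was outer root sheath-like cells at 123 and 79.9 CPM. Clusters that take the same name are pooled, so these values do not show whether such a cluster stood apart there. At the limits used here the cluster held 62.3% and 65.0% of all Krt6a UMIs. It carried the outer root sheath markers Sox9 (585 and 599.9 CPM) and Barx2 (753 and 968 CPM), and kept no name because its top 10 genes held 3 markers of that class, Krt14, Barx2 and Sox9, and 3 of others, Krt6a, Krt17 and Sbsn. Next came outer root sheath-like cells at 27.03 and 11.3 CPM and suprabasal epidermis and infundibulum-like cells at 18.6 and 11.8 CPM, which overlap. Fibroblast-like cells, a type that should lack keratin 6, held 1.118 and 1.17 CPM.

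Within the Pthlh and Krt14 cluster only a part of the cells held Krt6a. A UMI was found in 33.5% (exact 95% interval 27.5 to 39.8%) of 239 cells in mouse 1 and 31.3% (24.9 to 38.3%) of 198 cells in mouse 2, at median depths of 6367 and 7515 UMIs. In fibroblast-like cells the share was 1.17% and 1.48% at 9947 and 12027 UMIs. With each cell thinned to 3000 UMIs the shares were 23.2% and 22.2% in the cluster and 0.262% and 0.233% in fibroblast-like cells. Cells with at least 5 Krt6a UMIs, a limit chosen after the data were seen, numbered 49 and 29 in the 2 mice and held 67.0% and 63.8% of all Krt6a UMIs. Krt17 was present in 48 and 29 of them, Krt75 in 6 and 5 and Krt16 in 3 and 2. Of these cells 36 and 22 were in the Pthlh and Krt14 cluster, where 97.5% and 96.5% of all cells held Krt17.

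Krt6b was all but missing from intact skin. It had 2 UMIs in the 126675343 of mouse 1 and 0 in the 151165504 of mouse 2, while Krt6a had 1078 and 953. The count of 0 allows a level of up to 0.0198 CPM, taken as 3 UMIs. Cell Ranger counts only reads that map to a single gene, so reads from the shared stretches of the pair are in neither value.

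Krt75 followed the inner follicle. It was highest in hair shaft medulla-like cells at 444 and 435 CPM, and second in inner root sheath-like cells at 205 and 159 CPM, and these ranges did not overlap. A Krt75 UMI was found in 84.9% and 82.8% of the medulla-like cells and in 30.0% and 31.2% of the inner root sheath-like cells, against 6.87% and 7.79% of fibroblast-like cells. Thinned to 3000 UMIs the shares were 66.2% and 61.7%, 14.6% and 14.1%, and 2.20% and 2.17%. The cluster led by Igkc and Igha came next in order but rested on 34 UMIs. Those led by Grm7 and Slc39a10 (46.8 and 41.1 CPM) and by Cfd and Stmn1 (41.0 and 42.7 CPM) did not differ beyond their spread. In the Pthlh and Krt14 cluster Krt75 was at 32.3 and 20.6 CPM and in fibroblast-like cells at 7.19 and 7.38 CPM, so the highest classes of Krt6a and Krt75 were different cells.

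Krt16 was scarce throughout, with 250 and 279 UMIs in all, or 1.97 and 1.85 CPM. Its highest class was suprabasal epidermis and infundibulum-like cells at 17.8 and 22.8 CPM, where 3.25% and 4.39% of cells held a UMI. The cluster led by Pthlh and Krt14 was at 10.8 and 3.03 CPM and the cluster led by Krt35 and Dapl1 at 4.18 and 6.88 CPM, which overlap. Fibroblast-like cells held 0.389 and 0.374 CPM.

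Krt17 had the most UMIs of the 5 in intact skin, with 71213 and 58659 UMIs. It was highest in the Pthlh and Krt14 cluster at 8931 and 5701 CPM. Under the stricter cell filter its highest class was outer root sheath-like cells at 5496 and 3795 CPM. Outer root sheath-like cells (3619 and 2684 CPM) and suprabasal epidermis and infundibulum-like cells (3584 and 2246 CPM) followed and did not differ beyond their spread. Medulla-like cells were at 1434 and 1055 CPM, inner root sheath-like cells at 623 and 294 CPM and fibroblast-like cells at 51.7 and 41.995 CPM. Mouse 1 was above mouse 2 in each of these classes. A UMI was found in 97.5% and 96.5% of the cells of the Pthlh and Krt14 cluster and in 34.2% and 31.4% of fibroblast-like cells, or 96.4% and 91.8% against 12.2% and 9.22% when thinned.

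**Figure D4:**
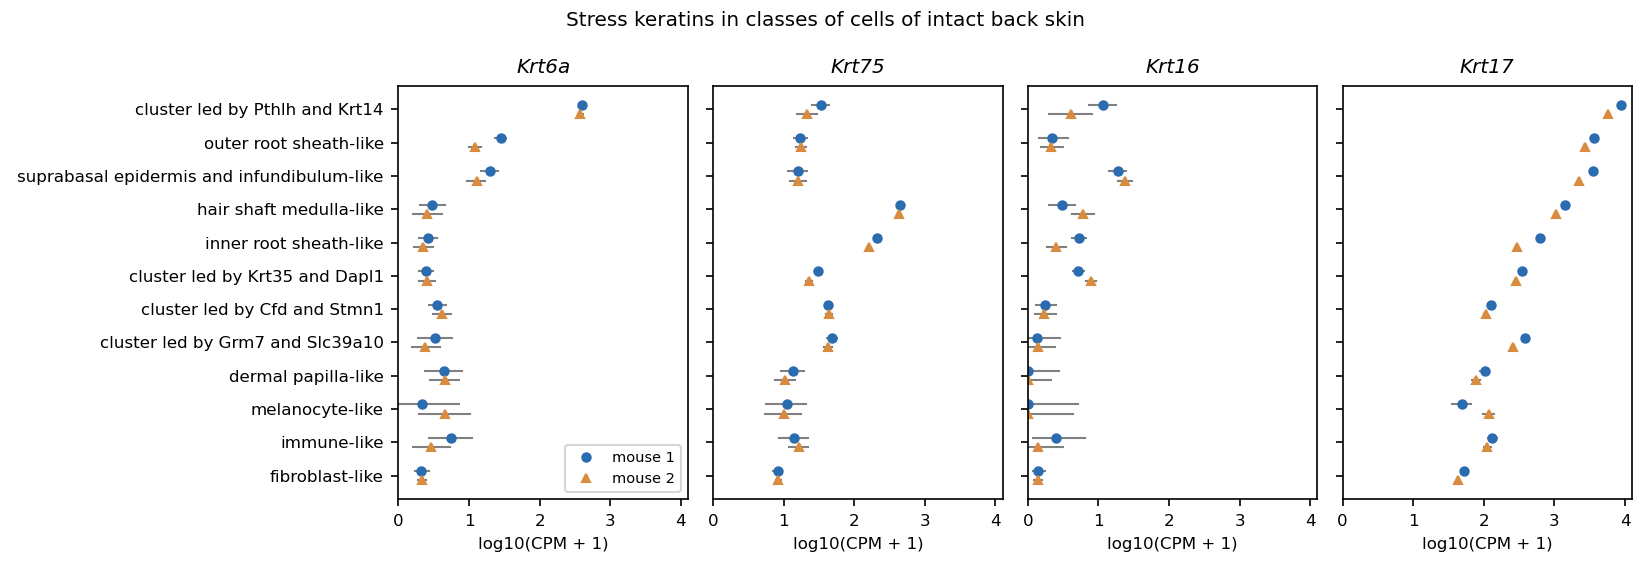
Level of Krt6a, Krt75, Krt16 and Krt17 in 12 classes of cells of anagen skin, as log10(CPM + 1) of UMIs summed per mouse. Circles are mouse 1, triangles mouse 2 and lines exact 95% Poisson intervals, which cover counting error only. Krt6a peaks in the Pthlh and Krt14 cluster (402 and 375 CPM) and Krt75 in medulla-like cells (444 and 435 CPM).

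Over the 56 combinations of cluster and mouse, the genes whose log2(CPM + 1) was most like that of Krt17 were Krt5 (r = 0.911) and Krt14 (0.896), the basal keratin pair. Krt75 was most like Dlx3 (0.775), a homeobox gene of the hair lineage, and Egr3 (0.771). Krt6a was most like Rnf223 (0.743) and Psapl1 (0.742), and Krt16 most like Psapl1 (0.755) and Dennd2c (0.753). The clusters of a mouse share its library, and Krt6b had too few UMIs for such a ranking.

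In the cultured single cells Krt6a and Krt16 were found in nearly every cell. The matrices of the 2 mice held 449 and 208 barcodes with none in common, and 1 to 5 barcodes in common with each in vivo matrix. Of the conditions, B-27 has no retinoic acid, and those with BMP2/4, Rspo (an R-spondin) and RARi (a retinoic acid receptor inhibitor) also hold atRA+PKCi. Only B-27 (5 and 9 cells), BMP2/4 (108 and 13 cells), Rspo+BMP2/4 (91 and 25 cells) and Rspo+BMP2/4+RARi (5 and 21 cells) had 5 cells in both mice and were tested, on UMIs summed per mouse. Unless stated, CPM of cultured single cells are given without TMM scaling, while the fits used it. Single cells weighed heavily in the B-27 sums, where 1 cell gave 45.88% of the Krt6b UMIs of mouse 1 and 1 cell gave 77.33% of those of mouse 2. FBS had 0 cells, and atRA+PKCi had 2 and 1 cells, in which Krt6a was at 255 and 3830 CPM.

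Krt6b was lower in the BMP2/4 condition than in B-27. That condition also holds atRA+PKCi, so BMP2/4 and atRA+PKCi cannot be told apart in this contrast. Krt6b was at 450 and 1169 CPM in B-27 and at 97.6 and 70.5 CPM in BMP2/4, a fall of 8.77-fold (log2 fold change -3.13 ± 0.61 (SE), n = 2 and 2, adjusted p = 0.00254 over 7407 genes). In atRA+PKCi without BMP2/4 it was at 107 and 227 CPM, from 8 and 10 UMIs of 2 and 1 cells, and was not tested. Krt6b was the 1 of 4 tested keratins called lower with BMP2/4, beside 7.74% of genes called lower and 1.51% called higher. The median log2 fold change was -1.21 over the 4 and 0.02 over all genes. The call was lost without BMP2/4 replicate 1 (log2 fold change -3.49, adjusted p = 0.0941) or BMP2/4 replicate 2 (-2.83, adjusted p = 0.122). It held without B-27 replicate 1 (-3.70, adjusted p = 0.00348) and, with a smaller change, without B-27 replicate 2 (-2.12, adjusted p = 0.0380). The count of all genes called, 685, ran from 92 without BMP2/4 replicate 1 to 1551 without Rspo+BMP2/4+RARi replicate 2, so the background shares depend on single sums.

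Krt16 was at 2217 and 3785 CPM in B-27 and at 790 and 609 CPM in BMP2/4. The groups did not overlap, but the log2 fold change of -1.98 ± 0.69 (SE) missed the threshold (adjusted p = 0.0882). It passed in DESeq2 (adjusted p = 0.00744), with hashtags assigned by their share of counts (adjusted p = 0.00402), with a mitochondrial limit of 20% (adjusted p = 0.0446), and without Rspo+BMP2/4+RARi replicate 1 (adjusted p = 0.00403) or replicate 2 (adjusted p = 0.00448). Krt6a was at 1037 and 1599 CPM in B-27 and 820 and 979 CPM in BMP2/4, with a log2 fold change of -0.44 and a 95% interval of -1.72 to 0.84 (adjusted p = 0.676). Krt17 was at 179.9 and 179.8 CPM in B-27 and at 316 and 125 CPM in BMP2/4, which overlap (log2 fold change 0.49, 95% interval -0.82 to 1.80, adjusted p = 0.646). Krt75 was not tested, with 1 UMI in BMP2/4 mouse 2 and 0 in every other sum.

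Adding Rspo to BMP2/4 gave no called keratin among 4 tested, with 0% of all 7407 genes called in either direction and 77 genes at an unadjusted p under 0.05. In Rspo+BMP2/4 Krt6a was at 661 and 605 CPM, Krt16 at 661 and 645 CPM, Krt17 at 189 and 225 CPM and Krt6b at 76.7 and 83.3 CPM. The log2 fold changes against BMP2/4 ran from -0.54 for Krt6a (95% interval -1.82 to 0.74) to -0.16 for Krt6b (95% interval -1.36 to 1.04). DESeq2 called 0 genes in this contrast, and edgeR called 15 with low counts kept, 5 with hashtags assigned by share and 0 to 4 with 1 sum left out. The intervals allow changes of more than 2-fold either way for Krt6b, Krt16 and Krt17.

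Adding RARi to Rspo+BMP2/4 likewise gave no called keratin among 4, with 0% of all genes called in edgeR, 2 genes called in DESeq2 and 287 genes at an unadjusted p under 0.05. The count in edgeR was 730 without Rspo+BMP2/4+RARi replicate 2, 0 without any other sum, 17 with hashtags assigned by share and 14 with low counts kept. Krt16 was at 759 and 1419 CPM, with a log2 fold change of 0.59 (95% interval -0.83 to 2.01, adjusted p = 0.959). After TMM scaling Krt16 was at 588 and 1534 CPM with RARi and at 768 and 650 CPM without it, which overlap. Krt17 was at 208 and 509 CPM (log2 fold change 0.72, 95% interval -0.55 to 1.99). Krt6b was at 31.2 and 54.8 CPM, from 3 and 33 UMIs (log2 fold change -0.89, 95% interval -2.23 to 0.46). Krt6a was at 697 and 976 CPM (0.22, 95% interval -1.06 to 1.504).

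**Figure D5:**
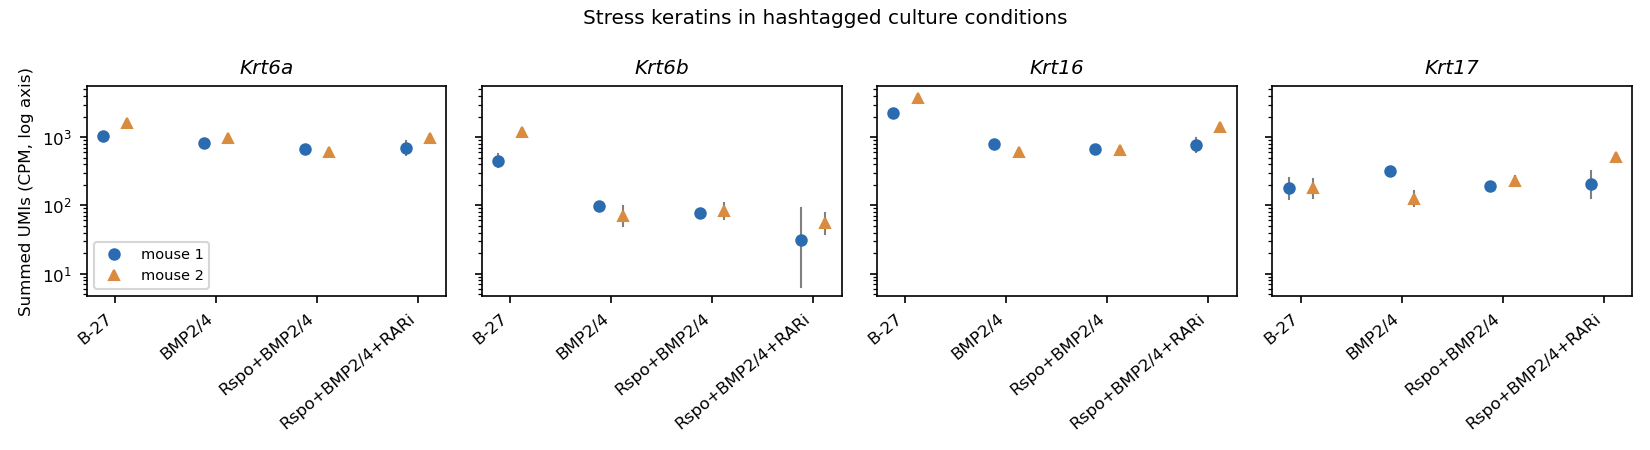
Level of Krt6a, Krt6b, Krt16 and Krt17 in 4 culture conditions, as CPM of UMIs summed per mouse on a log axis. Circles are mouse 1, triangles mouse 2 and lines exact 95% Poisson intervals, which cover counting error only. Krt6b is at 450 and 1169 CPM in B-27 and at 31.2 to 97.6 CPM in the other 3 conditions.

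Side by side, and with no test since the cells and their preparation differ, Krt16 was at 609 CPM or more in every tested culture condition and at 1.22 and 1.15 CPM in outer root sheath-like cells of intact skin. Krt6b was at 31.2 to 1169 CPM in culture and had no UMI in those cells. Krt17 showed the opposite order, at 125 to 509 CPM in culture and at 3619 and 2684 CPM in outer root sheath-like cells.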

How the data were processed

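The authors deposited estimated counts per gene from Salmon 1.4.0 for the RNA-seq libraries, and a table of normalized counts (signal) made from them. They deposited UMI counts per gene and barcode from Cell Ranger 7.0.1 (build mm10, per the labels) for the single cell matrices. Estimated counts were rounded, filtered with filterByExpr, scaled by TMM and fitted in edgeR 4.0.16 (R 4.3.3) with 4 group means over all 8 libraries. DESeq2 1.42.0 and limma 3.58.1 (on the normalized counts, log2(value + 1) or + 0.5) were alternatives, as were low counts kept, each library left out, the 4 libraries compared alone and the mouse as a block. UMIs of cultured cells were summed per mouse and condition and fitted alike. Same-numbered libraries of a genotype come from the same mouse, per the labels. Their deviations from the group means had r of 0.06 in wild-type and -0.02 in Rxra cKO cells. Same-numbered sums of the cultured conditions are also from the same mouse (r from -0.25 to 0.18).

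Cells with at least 500 genes, at least 1000 UMIs and under 10% mitochondrial UMIs were kept. Scrublet in scanpy 1.11.5 marked 820 and 444 in vivo doublets. In vivo cells were clustered on 2000 variable genes without the 5 keratins, 30 principal components and Leiden resolution 0.6. A cluster was named where the best class had a mean log2 fold of at least 1 over its markers, 3 markers in at least 10% of its cells, and more of its own than of other markers among its top 10 genes or no other. The markers Krt74 and Krt85 were not used. Culture conditions were called with HTODemux (Seurat 5.3.0, quantile 0.99), which marked 94 and 41 hashtag doublets. The fits were tested on simulated data. Intervals and floors cover counting error only. The genes named are the 5 keratins, the 3 called genes of each list with the largest change in wild-type cells (mean at least 5 CPM) and the 2 genes most like each keratin. Members and lists were chosen with earlier results of these data known. Promoter sequence was read for the 1 of the 5 genes held in the RefSeq table. Chromatin libraries were not used here.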

Additional observations from a re-analysis of the deposited data

Results flagged for a closer look

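The effect of the medium differed between genotypes, by the interaction term of the edgeR fit, for 3 keratins. The term was 1.82 on the log2 scale for Krt6a, 6.01 for Krt6b and 3.66 for Krt16, so that each fell less in Rxra cKO than in wild-type cells, and both libraries of every group followed this order.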

How the results depend on the processing

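In the RNA-seq contrasts every call of a keratin held its direction and side of the threshold under each alternative. The terms that moved were Krt17 with medium in Rxra cKO cells and in the interaction, and Krt75 with genotype. Leaving out 1 library at a time gave 5 to 5 keratins called with medium in wild-type cells, 4 to 5 in Rxra cKO cells, 4 to 4 with genotype in either medium and 3 to 4 in the interaction. That of Krt75 with genotype in atRA+PKCi ran from -0.038 to 1.75 on the log2 scale, reversing without wild-type atRA+PKCi replicate 2. The background moved more: genes called lower in the interaction fell from 1807 to 961 without Rxra cKO atRA+PKCi replicate 1, 1017 without its replicate 2 and 1095 without Rxra cKO FBS replicate 1, and those called higher from 2117 to 1375 without Rxra cKO atRA+PKCi replicate 2. Without these atRA+PKCi replicates 1 and 2, genes lower with genotype in atRA+PKCi fell from 3225 to 1971 and 2046. With medium in Rxra cKO cells, genes lower fell from 3542 to 2326 without replicate 1 and genes higher from 3319 to 2133 without replicate 2. The fit with the mouse as a replicate block moved 1 call of the paired contrasts, Krt17 with medium in Rxra cKO cells (-0.32), and changed no other call.

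In cultured cells the count of keratins called lower with BMP2/4 against B-27 was 2 with hashtags assigned by share, with a mitochondrial limit of 20% and in DESeq2, and ran from 0 to 2 with 1 sum left out, an alternative chosen after seeing the data. It was 0 to 0 for the other 2 contrasts. Log2 fold changes that missed the threshold changed sign in these fits. Against B-27, Krt6a ran from -0.78 to 0.046 and Krt17 from -0.45 to 1.08. For Rspo+BMP2/4 against BMP2/4, Krt6b ran from -0.43 to 0.22, Krt16 from -0.42 to 0.14 and Krt17 from -0.76 to 0.76. With RARi, Krt6a ran from -0.27 to 0.61, Krt16 from -0.18 to 1.11 and Krt17 from -0.38 to 1.30. A lone sum was taken to vary like the others.

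In intact skin the highest level of Krt6a was 101 CPM and that of Krt17 4645 CPM with at least 1000 genes and under 5% mitochondrial UMIs, in outer root sheath-like cells, and that of Krt6a was 360.0 CPM with doublets kept. The highest level of Krt75 was 371 CPM with the stricter cell filter, in a cluster led by Tchh and Gpnmb that no longer took the name medulla-like, 417 CPM at resolution 1.0, 336 CPM with doublets kept and 353 CPM with the 5 keratins among the clustering genes. Krt75 in culture and Krt16 and Krt6b in skin are limited by depth.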

Other observations

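The neighbouring type I genes Krt16 and Krt17 gave different readouts in the RNA-seq libraries. The level of Krt17 in Rxra cKO cells was 1460 to 1983 CPM and in wild-type cells 48.3 to 95.2 CPM, whatever the medium, while Krt16 was lowest in wild-type atRA+PKCi and highest in wild-type FBS. Krt18, a type I keratin of simple epithelia that is no member of the group, was also higher in Rxra cKO cells, by 2.90 on the log2 scale in FBS (edgeR, adjusted p = 3.61e-07) and by 1.93 in atRA+PKCi (adjusted p = 1.42e-06). Krt8, its type II partner, had mean levels in FBS of 0.0944 CPM (wild-type) and 15.5 CPM (Rxra cKO) (adjusted p = 1.46e-06), and 0.655 and 32.9 CPM in atRA+PKCi (adjusted p = 5.36e-07). Both genes were named after their values were seen.

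The epidermal pair Krt1 and Krt10 moved with medium in opposite directions in the genotypes. Krt1 fell by 4.91 (log2) with atRA+PKCi in wild-type cells (edgeR, adjusted p = 1.70e-05) and rose by 3.70 in Rxra cKO cells (adjusted p = 2.20e-05). The interaction was 8.61 (adjusted p = 1.26e-05). Krt10 fell by 4.47 (adjusted p = 5.81e-08) and rose by 1.64 (adjusted p = 3.61e-05), with an interaction of 6.11 (adjusted p = 1.74e-06). They were also named after their values were seen, and the cause was not tested.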
